A study of Mus musculus with 2 samples.

Results

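Adipocyte lipid droplet genes and adipokines were followed here as a set of 10 listed genes: Adipoq, Retn, Lep, Cfd, Fabp4, Plin1, Plin4, Cidec, Lpl and Pck1. Every probe set (a group of short array probes that together measure 1 transcript) whose platform annotation gave 1 of these symbols was taken, which gave 14 probe sets of 8 genes, out of 34945 named probe sets of 18193 genes. No probe set in the annotation used here carried the symbol Cfd or Plin1, so these genes have no value below. The set was chosen because adipose genes were higher on the Hif-2αΔIE array, so its direction in that contrast is a description and supports nothing.

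White fat cells store triglyceride in a single large lipid droplet, coated by perilipins and enlarged by CIDE proteins, and secrete hormones called adipokines. Fatty acids reach the droplet after lipoprotein lipase cleaves them from circulating lipoproteins, and cytosolic binding proteins carry them inside the cell. In the gut, fat cells lie mainly in the mesentery and around the wall, while the mucosa itself is rich in epithelial, immune and stromal cells.

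The tissue was mucosa scraped from the colon of C57BL/6 mice aged 6 to 8 weeks (7 weeks in the design text), all of which had been exposed for 3 days to 3% DSS (dextran sulfate sodium, an agent that damages the colon lining). The 2 groups were Hif-2αΔIE, taken here, as is usual for mice so named, to lack Epas1 in the intestinal epithelium (Epas1 encodes HIF-2α, a hypoxia-inducible factor), and Hif-2αF/F, in which the conditional alleles are intact. The design text counts 5 ΔIE and 6 F/F mice, but the data hold 1 array per group. The sources used here do not say whether mice were pooled or which promoter drives Cre. No difference below therefore has a replicate check, an error or a p-value, and each compares these 2 arrays.

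Values are log2 expression, and differences are ΔIE minus F/F. A gene took the value of its brightest probe set and was kept if the higher of its 2 values reached 6.11, the median over all probe sets, which left 11899 genes. Cre control probe sets of the array read 7.86 to 10.01 on the ΔIE array and 2.92 to 4.22 on the F/F array. Whether this gap comes from Cre RNA of the mice was not tested. The 2 probe sets of Epas1 read 11.77 and 7.15 on the ΔIE array, against 11.90 and 6.98 on the F/F array, and their position relative to the deleted part was not determined here. The colon label was set beside the epithelial genes Car1 and Apoa4, which were chosen after values were seen and so are no independent check. The colonocyte carbonic anhydrase gene Car1 read 14.40 and 14.22 on the ΔIE and F/F arrays. The small intestinal gene Apoa4 stayed below the filter on both, at 3.98 and 4.07. Other genes known from small intestine were above it on both arrays, with Fabp2 at 13.31 and 12.76, Alpi (intestinal alkaline phosphatase) at 9.96 and 8.97, Apob at 8.45 and 7.89, and Fabp6 at 7.20 and 7.37.

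Of the 8 measured genes, 7 were kept, and all 7 were higher on the ΔIE array, with a median difference of 0.79 and a range of 0.41 to 0.99. All 7 reached the filter on both arrays. Over all genes kept, 52.7% were above 0 and the median was 0.02. At least 1.5-fold higher were 5 of the 7 genes, where the share over all genes kept was 4.37%. None of the 7 was at least 2-fold higher by its brightest probe set, where the share was 1.15%. Retn, at 1.98-fold, and Pck1, at 1.92-fold, lay just under that limit. The members were selected on this contrast, and nothing is read from these counts. In bulk tissue, more cells of a type and more RNA per cell cannot be told apart.

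**Figure D1:**
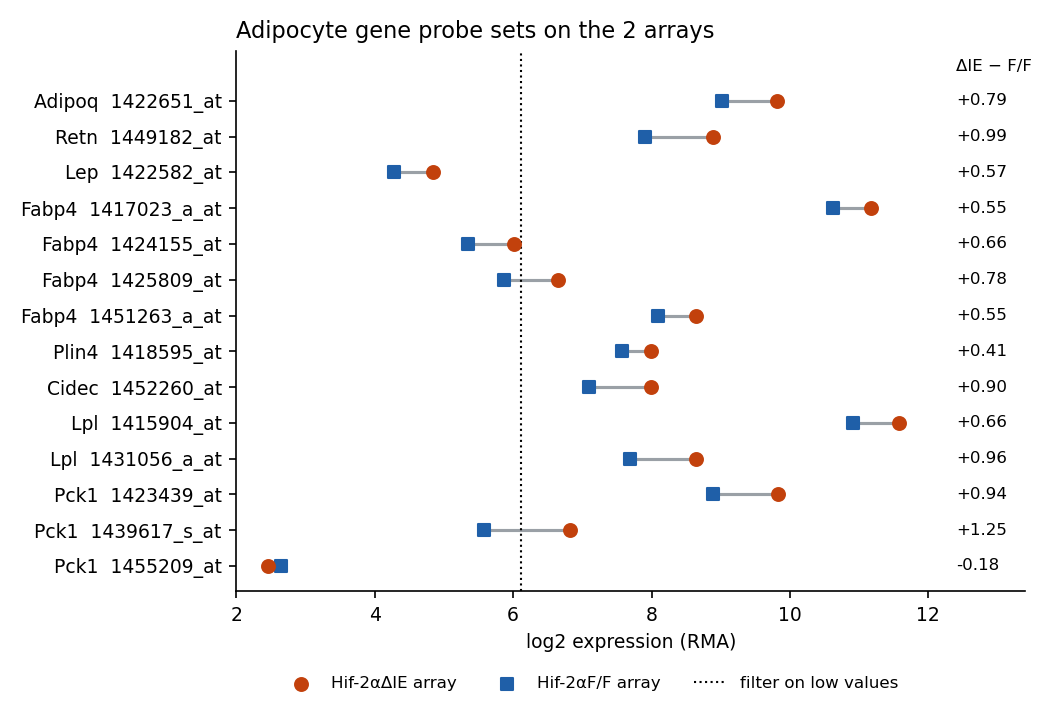
Log2 expression (horizontal axis) of the 14 probe sets of the listed adipocyte genes on the Hif-2αΔIE array (orange circles) and the Hif-2αF/F array (blue squares), 1 array per group, with the difference at the right and the filter at 6.11 dotted. In 13 probe sets the ΔIE value lies to the right of the F/F value, and in the dim Pck1 probe set 1455209_at it lies to the left.

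Among the hormones, Adipoq encodes adiponectin, the adipokine that marks mature fat cells and promotes insulin sensitivity. Its probe set 1422651_at read 9.82 on the ΔIE array and 9.02 on the F/F array, a difference of 0.79. Retn encodes resistin, which in mice is made mainly by fat cells and opposes insulin action. It read 8.89 on the ΔIE array and 7.90 on the F/F array, and its difference of 0.99 was the largest of the 7 genes by their brightest probe sets. Lep encodes leptin, the satiety hormone that reports fat mass to the brain. Its probe set read 4.84 on the ΔIE array and 4.27 on the F/F array, below the filter on both, so no fold is given for it.

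Plin4 encodes a perilipin found on nascent lipid droplets of fat cells. It read 7.99 on the ΔIE array and 7.58 on the F/F array, and its difference of 0.41 was the smallest among the kept members. Cidec encodes FSP27, which fuses droplets into the large droplet of white fat. It read 7.99 on the ΔIE array and 7.09 on the F/F array, a 1.87-fold difference.

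Fabp4 encodes the fatty acid binding protein aP2, abundant in fat cells and also made by capillary endothelium and macrophages. Its brightest probe set, 1417023_a_at, read 11.17 on the ΔIE array and 10.62 on the F/F array. Probe set 1451263_a_at read 8.64 on the ΔIE array and 8.10 on the F/F array. The dimmer 1425809_at read 6.64 and 5.87 on the ΔIE and F/F arrays, and 1424155_at read 6.01 and 5.35, below the filter on both. All 4 probe sets of Fabp4 were thus higher on the ΔIE array, by 0.55 to 0.78.

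Lpl encodes lipoprotein lipase, which fat cells and muscle secrete to capillary walls and which macrophages also make. Probe set 1415904_at read 11.58 on the ΔIE array and 10.91 on the F/F array, a difference of 0.66. Probe set 1431056_a_at read 8.65 on the ΔIE array and 7.69 on the F/F array, a difference of 0.96. Both had the same direction but lay 0.30 apart. For scale, the differences of the 2 brightest probe sets of a gene lay a median of 0.10 apart over 5110 genes, and 95% lay within 0.41.

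Pck1 encodes cytosolic phosphoenolpyruvate carboxykinase, which supplies glycerol for triglyceride in fat cells and makes glucose in liver, kidney and gut. Its brightest probe set, 1423439_at, read 9.83 on the ΔIE array and 8.89 on the F/F array, a difference of 0.94. Probe set 1439617_s_at read 6.82 on the ΔIE array and 5.57, below the filter, on the F/F array. Probe set 1455209_at read 2.46 and 2.64 on the ΔIE and F/F arrays, far below the filter on both, and was the 1 member probe set that was not higher on the ΔIE array. Of all 14 probe sets, 11 reached the filter and all 11 were above 0, where the share over named probe sets reaching the filter was 54.1%. A Fabp4 and a Pck1 probe set among these, 1425809_at and 1439617_s_at, reached it through the ΔIE value alone. Of the 11, 8 were at least 1.5-fold higher, where that share was 4.03%. Among them, 1 was at least 2-fold higher (Pck1 1439617_s_at, with its F/F value below the filter), where the share was 0.983%.

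**Figure D2:**
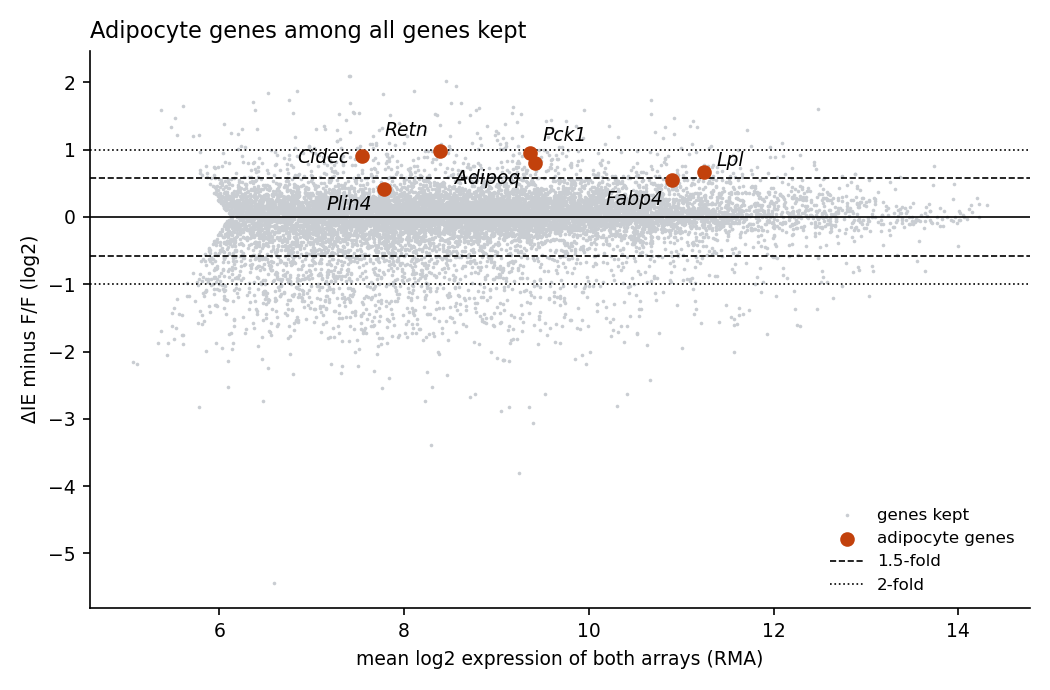
Difference between the Hif-2αΔIE and Hif-2αF/F arrays (vertical axis, log2) against the mean log2 expression of both arrays (horizontal axis) for the 11899 genes kept (grey), with the 7 kept adipocyte genes in orange. The orange points lie between 0.41 and 0.99, 5 of them above the 1.5-fold line (dashed) and none above the 2-fold line (dotted).

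The start-site sequences of the members were read for description only, since the shared direction of the kept members is how the set was chosen. Cfd and Plin1, which have no value, and Lep, which was not kept, were included. RefSeq windows of 300 bases (250 before and 50 after each annotated start, build GRCm38.p6) matched 8 of the 10 members in 9 windows, with 2 for Cidec. Fabp4 and Lpl had no entry. Both strands were searched for the C/EBP palindrome TTGCGCAA, the CCAAT box, the nuclear receptor core AGGTCA and its DR1 repeat (a pair of such cores 1 base apart, the site type of PPARγ with RXR), the HIF cores ACGTG and GCGTG, the CRE core CGTCA and the TATA box TATAAA. Shown are Adipoq, the fat cell hormone (chr16:23146286-23146585, plus strand), Cidec, whose windows hold the HIF core GCGTG (a at chr6:113435711-113436010 and b at chr6:113434715-113435014, minus strand), and Pck1, with its CRE core (chr2:173152823-173153122, plus strand). Capitals mark matches to the searched motifs on either strand.
Adipoq: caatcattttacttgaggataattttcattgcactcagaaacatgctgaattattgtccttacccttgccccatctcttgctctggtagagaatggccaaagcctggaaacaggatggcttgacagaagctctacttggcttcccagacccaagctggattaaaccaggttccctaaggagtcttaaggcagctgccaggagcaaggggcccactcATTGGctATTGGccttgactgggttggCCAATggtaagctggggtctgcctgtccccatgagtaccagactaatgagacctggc
Cidec a: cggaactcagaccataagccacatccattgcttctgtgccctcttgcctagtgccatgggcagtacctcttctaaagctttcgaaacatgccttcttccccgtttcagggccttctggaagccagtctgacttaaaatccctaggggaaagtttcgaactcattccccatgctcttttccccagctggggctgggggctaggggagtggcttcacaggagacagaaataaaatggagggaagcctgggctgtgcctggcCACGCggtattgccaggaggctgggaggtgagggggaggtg
Cidec b: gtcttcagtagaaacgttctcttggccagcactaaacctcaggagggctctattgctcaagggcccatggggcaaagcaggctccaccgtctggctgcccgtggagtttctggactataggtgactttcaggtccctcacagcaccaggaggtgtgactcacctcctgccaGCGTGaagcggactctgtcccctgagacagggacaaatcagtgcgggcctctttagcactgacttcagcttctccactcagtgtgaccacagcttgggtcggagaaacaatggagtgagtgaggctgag
Pck1: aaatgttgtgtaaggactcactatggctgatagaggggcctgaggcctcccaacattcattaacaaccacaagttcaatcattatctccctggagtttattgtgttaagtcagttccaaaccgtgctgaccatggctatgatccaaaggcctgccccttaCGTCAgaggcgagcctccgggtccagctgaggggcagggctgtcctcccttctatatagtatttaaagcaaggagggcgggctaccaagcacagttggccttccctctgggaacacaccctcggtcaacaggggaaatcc

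No motif was shared by all members. The Adipoq window held 3 CCAAT boxes, 1 on the printed strand and 2 on the opposite strand, and Plin4 held 1. CCAAT occurred in 37.4% of all 32851 windows. GCGTG occurred in both Cidec windows, at 79 bases before start b and 10 bases after start a, and in 32.4% of all windows. ACGTG, which was in 19.6% of all windows, was in none of the 9. CGTCA was in the Pck1 window, 90 bases before the start, and in 20.8% of all windows. The C/EBP palindrome was in the Lep window, 55 bases before the start, and in 0.183% of all windows. AGGTCA (16.3% of all windows), DR1 (0.040%) and TATAAA (13.6%) were in none of the 9. A match is a run of letters, and its absence says only that these letters are not in the window.

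The closest relatives of the members differed by varying amounts. In the resistin family, Retnlb, which encodes the goblet cell product RELMβ, read 12.74 on the ΔIE array and 11.82 on the F/F array, a difference of 0.92 beside 0.99 for Retn. Retnla, which encodes RELMα of alternatively activated macrophages, differed by 0.32. Among perilipins, Plin2, the coat protein of droplets in many cell types, differed by -0.11, Plin3 by 0.16 and Plin5, the perilipin of oxidative tissues, by -0.08, beside 0.41 for Plin4. Of the CIDE genes, Cideb, which serves lipoprotein secretion in liver and gut, differed by 0.08, and Cidea, typical of brown fat, read 4.19 on the ΔIE array and 4.25 on the F/F array, both under the filter. Because the members were chosen as a set for being higher in this contrast, nothing is read from their differences beside those of relatives and partners, here or below.

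Fatty acid binding protein genes had no common direction. Fabp2, the enterocyte form, read 13.31 on the ΔIE array and 12.76 on the F/F array, a difference of 0.55 like that of Fabp4. Fabp5, the epidermal form, read 12.45 on the ΔIE array and 13.28 on the F/F array, and its other probe set differed by -1.42. Fabp6, the ileal bile acid binding protein gene, differed by -0.17, and Fabp1 was below the filter on both arrays. Pck2, the mitochondrial relative of Pck1, differed by 0.35.

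Genes of proteins that serve lipoprotein lipase went both ways. Gpihbp1, which encodes the capillary anchor of the enzyme, differed by -0.39. Angptl4, an inhibitor induced by fasting and hypoxia, differed by -0.43. Apoc2, the gene of the obligate activator, which macrophages also make, read 6.78 on the ΔIE array and 8.05 on the F/F array. Lmf1, needed for folding of the enzyme, differed by 0.35. Adiponectin receptor genes Adipor1 and Adipor2 differed by -0.09 and 0.25, the adiponectin-binding cadherin gene Cdh13 by -0.20, and the leptin receptor gene Lepr by 0.14.

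**Figure D3:**
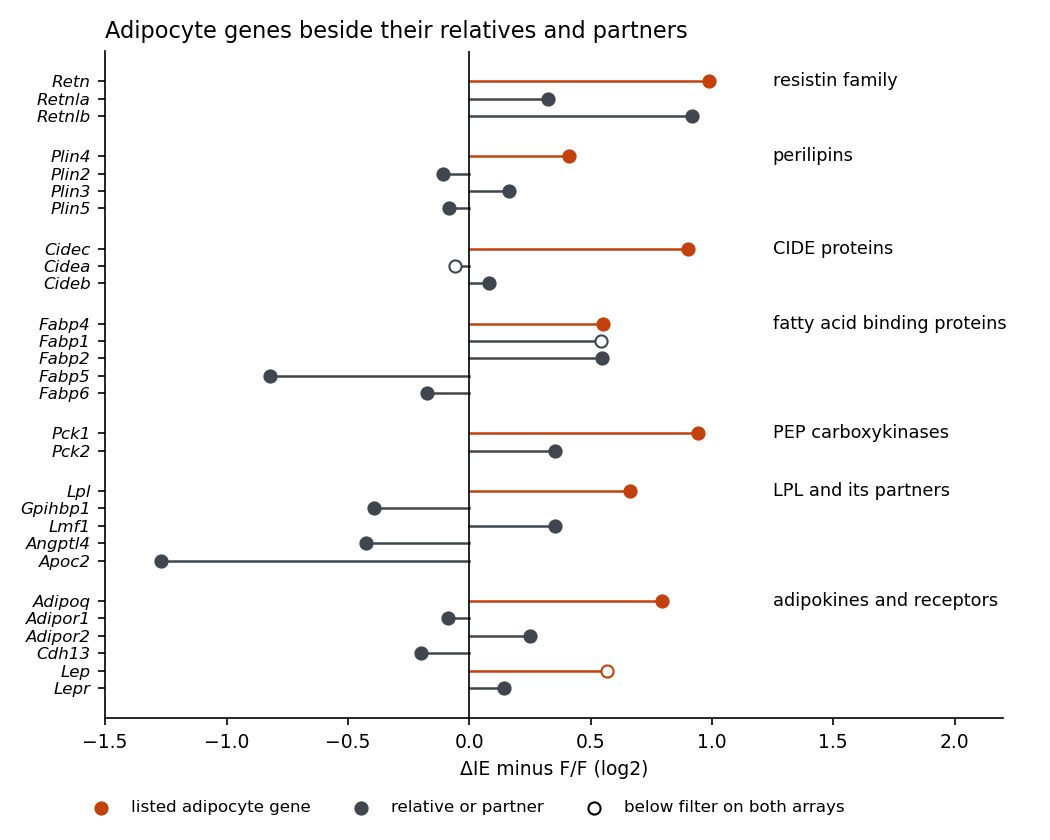
Difference between the Hif-2αΔIE and Hif-2αF/F arrays (horizontal axis, log2) for the brightest probe set of each listed adipocyte gene (orange) and of its relatives and partners (dark grey), grouped by family, with open points below the filter on both arrays. Retn and Retnlb lie near each other at 0.99 and 0.92, while Cidec at 0.90 stands beside Cideb at 0.08 and Lpl at 0.66 beside Apoc2 at -1.27. The listed genes were chosen for being higher in this contrast, so nothing is read from these distances.

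Genes of fat metabolism outside the members were mixed. Of 20 triglyceride and fatty acid synthesis genes, all kept, 15 were higher on the ΔIE array and the median was 0.22. At least 1.5-fold higher were 7, and 1 was at least 1.5-fold lower. Over all genes kept, 4.37% were at least 1.5-fold higher and 10.6% at least 1.5-fold lower. Thrsp (Spot 14, a lipogenic regulator) read 8.07 on the ΔIE array and 6.53 on the F/F array, a difference of 1.53 that became 0.84 when its probe sets were averaged. The acetyl-CoA carboxylase gene Acacb differed by 0.87, Mlxipl (the glucose-sensing factor ChREBP) by 0.85, the glycerol-3-phosphate dehydrogenase gene Gpd1 by 0.69 and the monoacylglycerol acyltransferase gene Mogat2 by 0.67. Pcx, the pyruvate carboxylase gene, went the other way at -0.73.

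All 6 kept genes of gluconeogenesis and glyceroneogenesis other than Pck1 were above 0, with a median of 0.35. The fructose bisphosphatase gene Fbp1 read 6.82 on the ΔIE array and 5.59, below the filter, on the F/F array, and the pyruvate dehydrogenase kinase gene Pdk4 differed by 0.61. Of 7 lipolysis genes kept, 3 were above 0 and 4 below. The monoglyceride lipase gene Mgll was 2.06-fold higher on the ΔIE array, and the triglyceride lipase gene Pnpla2 and the hormone-sensitive lipase gene Lipe differed by 0.51 and 0.29. G0s2, an inhibitor of that triglyceride lipase, differed by -0.66. The lipolysis median was -0.11, and its sign depended on the filter: it was 0.20 both without a filter and with a filter at the 75th percentile.

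Among fatty acid uptake genes and lipase partners, 7 of 13 kept genes were above 0, with a median of 0.09. The scavenger receptor gene Cd36 and the lipoprotein receptor gene Vldlr differed by 0.71 and 0.76. Among other droplet genes, 7 of 10 were above 0 with a median of 0.12, and Hsd17b13, a droplet protein best known from liver, read 8.23 on the ΔIE array and 6.69 on the F/F array. The difference of Hsd17b13, 1.54 by its brightest probe set, was 0.67 when its probe sets were averaged. Of 11 genes of adipokine receptors and other adipokines, 8 were above 0 with a median of 0.19, and Rbp4, the retinol carrier that fat and liver secrete, was 2.30-fold higher.

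Regulators of fat cell formation went both ways, with 7 of 13 kept genes above 0 and a median of 0.08. Pparg, the master regulator of the fat cell programme, which colon epithelium also expresses, read 10.57 on the ΔIE array and 9.63 on the F/F array. Cebpa, its partner in mature fat cells, read 9.86 and 9.72 on the ΔIE and F/F arrays. The early factors Cebpb and Cebpd, which inflammation also induces, differed by -0.91 and -1.02, and Ebf1 by -0.66.

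The list of adipocyte membrane and caveola genes, which the choice of members did not name, had no common direction: 6 of 15 kept genes were above 0 and the median was -0.05. Car3, a carbonic anhydrase gene abundant in fat and muscle, read 12.57 on the ΔIE array and 11.84 on the F/F array. Acvr1c, a fat cell activin receptor gene, read 6.40 on the ΔIE array and 5.64, below the filter, on the F/F array. The insulin-responsive glucose transporter gene Slc2a4 differed by 0.28. The caveola genes Cav2 and Cavin1, which stromal and endothelial cells also express, differed by -0.66 and -0.48, and the insulin receptor substrate gene Irs1 by -1.06. The largest difference in the list was that of Nat8l, an N-acetylaspartate synthase gene, which read 5.30, below the filter, on the ΔIE array and 6.40 on the F/F array. Brown fat genes were mostly dim: 4 of 11 measured were kept, with a median of 0.29. The largest difference among them was that of Dio2, the gene of a thyroid hormone activating deiodinase, which read 5.77, below the filter, on the ΔIE array and 7.35 on the F/F array (a difference of -1.57, or -0.92 with its probe sets averaged). Ucp1, the uncoupling protein that defines brown fat, was not kept and read 3.90 on the ΔIE array and 3.84 on the F/F array.

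Markers of other cells that a scraping can hold moved on the same arrays. The median of 15 vascular endothelium genes was -0.49, all of them were lower on the ΔIE array, and Cdh5 (VE-cadherin) and Pecam1 differed by -0.96 and -0.85. Of 15 macrophage genes, 14 were lower, with a median of -0.77, and Cd68 differed by -1.19. Endothelial cells and macrophages also make Fabp4, and macrophages Lpl, and the part of these cells in the differences of both genes was not tested. Adipose progenitor genes were lower in 7 of 9, with a median of -0.85, where 52.7% of all genes kept were above 0. Pdgfra was at -0.62 and Pi16 at -1.36 (-0.39 and -0.68 with their probe sets averaged). Dpp4 and Fap went the other way, at 0.32 and 0.41. Of 10 genes of mesothelium, the outer lining of the gut, 5 were kept, 1 of them above 0, with a median of -0.02. The largest difference was that of Bnc1, a transcription factor gene also expressed in squamous epithelium, which read 5.75, below the filter, on the ΔIE array and 7.78 on the F/F array. The defining gene Msln was below the filter on both, at 4.26 and 4.06 on the ΔIE and F/F arrays. Upk3b, Wt1, Lrrn4 and Gpm6a were also below it on both arrays, so the mesothelium median covers none of these genes. It rests on Bnc1, Upk1b, Muc16, Cpe and Krt19.

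Enterocyte genes, markers of a cell type that can express Pck1, were above 0 in 11 of 14, with a median difference of 0.28. Their mean level was 11.90 on the ΔIE array and 11.49 on the F/F array. Their median level had the other order, at 12.08 on the ΔIE array and 12.19 on the F/F array. All 11 skeletal muscle genes kept, of 14 measured, were higher on the ΔIE array. Of them, 10 reached 2-fold, where the share over all genes kept was 1.15%. Tnnt3, Pvalb and Mb among these 10, and Atp2a1 below 2-fold, had an F/F value below the filter. They were kept through the ΔIE value alone, so the filter fixed their direction. The median difference of the 11 muscle genes was 1.28, and their mean level was 7.72 on the ΔIE array and 6.39 on the F/F array. The fast muscle myosin light chain gene Mylpf differed by 2.09. Among myosin heavy chain genes, Myh1 read 8.60 on the ΔIE array and 7.09 on the F/F array. Its difference was 1.51, or 1.06 with its probe sets averaged. Myh2 and Myh4 were below the filter on both arrays. Muscle also makes Lpl. The part of enterocyte and skeletal muscle RNA in the differences of the adipocyte genes was not tested.

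**Figure D4:**
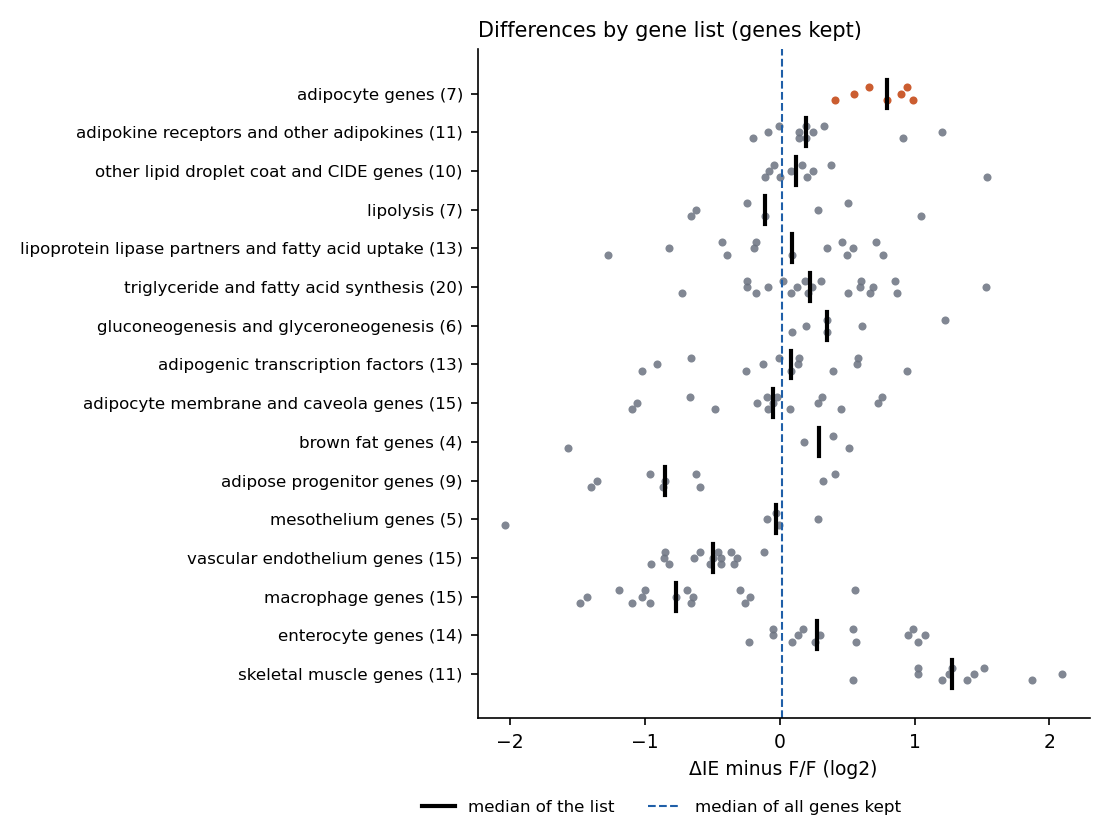
Difference between the Hif-2αΔIE and Hif-2αF/F arrays (horizontal axis, log2) for each kept gene of the adipocyte set (orange) and of 15 related lists (grey), with the number kept in brackets, the list median as a black bar and the median of all genes kept dashed. The adipocyte genes centre on 0.79, skeletal muscle genes on 1.28 and macrophage genes on -0.77. Vertical offsets within a list carry no value.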

How the data were processed

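Total RNA from colon scrapings was measured on 1 array per genotype. The authors deposited log2 expression values made with affy and RMA, per the submitters' processing notes; the sources used here give no versions and do not say which arrays were normalized together. RMA gives no detection call, compresses dim differences and equalizes distributions, so a change in total RNA would not be seen. The number of arrays limits the precision.

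Of 45101 probe sets, 34958 had 1 platform symbol, 932 several and 9211 none; 64 control probe sets were left out. No test was run. The calculations were tested on simulated data. The members and lists were chosen with earlier results of these data known. Named are all member probe sets, up to 6 kept genes of largest difference per list, and relatives, partners or regulators set by name (such as Adipor1, Cebpa and Ucp1). Not every gene the rule allows is printed. Apoa4, Atp2a1, Car1, Dpp4, Fap, Gpm6a, Lrrn4, Msln, Myh2, Myh4, Pvalb, Slc2a4, Tnnt3, Upk3b, Wt1 and the promoter motifs were chosen after values were seen. Alternatives covered probe set choice, filter, scaling and fold. Software was matplotlib 3.10.9, statsmodels 0.14.6, pandas 2.3.3, numpy 2.4.6 and Python 3.11.15.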

Additional observations from a re-analysis of the deposited data

How the results depend on the processing

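The median of the adipocyte genes moved by less than 0.20 under all 8 alternatives of probe set choice, filter and scaling. Each member that a setting kept stayed above 0, from a lowest value of 0.37 (Plin4, median centring). The members kept were not the same throughout: 5 remained with the lowest-mean probe set, and 5 with the filter at the 75th percentile. Fabp4 and Pck1 dropped out with the lowest-mean probe set, which for Pck1 was 1455209_at at -0.18. Because the filter removed such values, nothing is read from the members staying above 0. Pck1 differed by 0.67 with its probe sets averaged. At a 1.2-fold limit, 2092 genes were higher and 2373 lower, and at 3-fold 20 and 177, with 0 members higher. With a filter at the 75th percentile, 706 genes were at least 1.5-fold and 381 at least 2-fold lower, and the medians were 0.20 for lipolysis, 0.50 for lipase partners, -0.98 for macrophage and 1.69 for skeletal muscle genes. Without a filter, the medians were 0.20 for lipolysis, 0.34 for lipase partners, 0.055 for brown fat and -0.62 for progenitor genes. Progenitor genes were at -0.59 with probe sets averaged or with the lowest-mean probe set, under which lipolysis was at -0.45. The filter alternatives change which genes are in a list. So do the averaged and lowest-mean settings, under which 10516 and 7816 genes were kept, against 11899 in the main setting. With the lowest-mean probe set, Mgll and Pnpla2 left the lipolysis list, and Pdgfra and Pi16 left the progenitor list. What else moved these medians was not tested. No paired analysis was possible because each group has 1 array. Low signal limits Lep, Cidea and Ucp1, which lay below the filter.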
